A study of Mus musculus with 18 samples.

Results

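Potassium channels were described here as a gene family of 88 members among the 53468 genes counted. They were taken as the protein-coding genes of GENCODE M21 whose symbol begins with Kcn and continues with letters and a number. The symbol pattern matched 92 genes, of which 4 (Kcnj13, Kcnj10, Kcnj8 and Kcnk9) were left out by the rule that defined the family. By symbol the members fell into 30 voltage-gated pore-forming subunits (Kcna, Kcnb, Kcnc, Kcnd, Kcnq and Kcnh), 10 silent voltage-gated modifiers (Kcnf, Kcng, Kcns and Kcnv), 12 inward rectifiers (Kcnj), 13 K2P leak channels with a pair of pore domains in each subunit (Kcnk), 8 calcium- or sodium-activated subunits (Kcnma, Kcnn, Kcnt and Kcnu) and 15 auxiliary subunits (Kcnab, Kcne, Kcnip and Kcnmb).

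The mRNA was sequenced in 18 libraries from 6 mice of one litter on a C57BL/6 background at postnatal day 25. Of these mice 3 were Fmr1CRE and 3 were wild type, and each gave 1 library from dissected forebrain, 1 from midbrain and 1 from hindbrain. Fmr1CRE mice carry a nucleotide change in a cis-regulatory element of Fmr1, knocked in with CRISPR/Cas9, and the sources used here do not say which of the established lines was sequenced. Fmr1 encodes FMRP, an RNA-binding protein that represses translation of many neuronal mRNAs. The data address how the family was expressed across the brain regions and whether it differed with the Fmr1CRE genotype.

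Potassium channels let potassium leave the cell, which sets the resting potential, ends the action potential and fixes how fast a neuron can fire again. Voltage-gated subunits open on depolarization, inward rectifiers and K2P channels hold the membrane near rest, and calcium- or sodium-activated channels link ion entry to repolarization. Silent modifiers do not form channels on their own and join Kcnb subunits, whereas auxiliary subunits carry no pore and change the gating or the surface level of the channels they bind.

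The pore of these channels holds a short selectivity filter that lets potassium pass and holds back sodium. In the longest coding sequence of each member in the GENCODE M21 transcripts, the motif of threonine or serine, any residue, glycine, then tyrosine, phenylalanine or leucine, then glycine was searched in frame on the coding strand. All 73 pore-forming members held it, all 13 K2P members held it at 2 places, and 0 of the 15 auxiliary members held it. Kcna6 and Kcnh2 held a further match upstream of the pore. Among all 21503 protein-coding genes with a full coding sequence, 5.44% held the motif. The fourth residue of the filter was tyrosine in 22 voltage-gated subunits and in all 10 silent modifiers, and phenylalanine in the 8 Kcnh subunits. The filter windows of some members on which the regional results turn are printed below. Kcng4 was higher in hindbrain than in forebrain and the others higher in forebrain. The search required the motif, so likeness of the filter codons is not a result. Each window has 10 codons, 5′ to 3′ on the coding strand, with the 5 filter codons in capitals.
Kcnh3: ctcaccAGTGTGGGCTTCGGCaacgtgtcc
Kcnv1: atgactACAGTAGGATATGGGgacattaga
Kcnf1: atgaccACAGTGGGCTATGGTgacatctac
Kcng4: atgacgACCGTGGGCTATGGGgacatggtc
Kcnk2, downstream pore: ctgacgACCATTGGATTTGGAgactacgtg
On GRCm38 these coding-exon windows lie at chr15:99232923-99232952 on the plus strand in Kcnh3, chr15:45109280-45109309 on the minus strand in Kcnv1 and chr12:17175052-17175081 on the minus strand in Kcnf1. The window of Kcng4 is chr8:119625901-119625930 and that of Kcnk2 is chr1:189256572-189256601, both on the minus strand.

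Each library held between 22455512 and 28061185 counts. Levels are given as CPM, which are counts scaled to library size, with edgeR's TMM factors, and differences as log2 fold changes with their standard errors (SE) from edgeR's quasi-likelihood test, with Benjamini-Hochberg adjusted p over all genes tested. Fmr1 itself ranged from 63.5 to 78.8 CPM in Fmr1CRE and from 51.1 to 83.4 CPM in wild type libraries, and the groups overlapped in every region. Markers of the telencephalon were carried by the midbrain libraries as well, at a mean log2 CPM of 4.23 to 4.85 against 5.02 to 5.42 in forebrain and 0.65 to 1.16 in hindbrain. Midbrain libraries also carried markers of cerebellar granule neurons (4.59 to 5.91, against 0.82 to 2.34 in forebrain and 5.77 to 6.87 in hindbrain) and of Purkinje cells (5.78 to 7.04, against 3.65 to 4.14 and 7.01 to 7.96). The forebrain libraries of replicate 3 stood apart in a check of the labels. Of 12 genes that were on in one replicate 3 mouse (at least 1 CPM) and off in the other (below 0.1 CPM) in both midbrain and hindbrain, 7 had the opposite direction in forebrain and 1 the same. The other 44 such readings between pairs of mice had at most 5 genes in the opposite direction. In 8 of the 44 the opposite genes outnumbered the others. The reading with 5, and 0 in the same direction, was wild type replicate 2 against Fmr1CRE replicate 3 in forebrain. It thus used a library of the replicate 3 forebrain pair. The genotype labels of the 2 replicate 3 forebrain libraries may therefore be exchanged or the samples mixed. This was not resolved, and they were kept as labelled. Counts are also given without both replicate 3 mice. The libraries were sequenced in pools whose members the sources used here do not name, and a difference between pools was not tested.

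Of the 88 members, 76 passed the filter on low counts and were compared between regions. The 10 members whose highest library had under 10 counts were Kcna7, Kcna10, Kcne1, Kcne3, Kcnj1, Kcnj15, Kcnk16, Kcnk18, Kcnmb3 and Kcnv2, and the other 2 untested members were Kcnk7 and Kcnk15. The mean level was highest in forebrain for 35 of the 76, in midbrain for 22 and in hindbrain for 19. The members' CPM summed to a median of 4715 in forebrain (3913 to 4809), 4585 in midbrain (3880 to 5360) and 3147 in hindbrain (2838 to 3343). The forebrain and midbrain sums overlapped, and every hindbrain sum lay below them.

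Between genes, levels were compared per kilobase of effective length. Kcnab2, the cytosolic beta subunit of Kcna channels, had the highest level in each region, with 103.9 CPM per kb in forebrain (87.0 to 128.8 over 6 libraries), 103.3 in midbrain (82.8 to 136.2) and 75.2 in hindbrain (59.0 to 95.5). Its libraries lay above those of every other member in forebrain and midbrain, and in hindbrain its lowest library (59.0) was just below the highest of Kcnk1 (59.2). In forebrain it was followed by Kcnh3 at 54.9, Kcnip2 at 49.9, Kcnab1 at 46.4 and Kcnk1 at 40.9 CPM per kb. In midbrain Kcnab1 and Kcnc1 followed at 42.1 and 40.6 CPM per kb, and Kcnip4 had 37.5. In hindbrain Kcnk1, Kcnab1 and Kcnip4 followed at 50.0, 42.7 and 37.6 CPM per kb. From the second place down to these last named members, neighbours in the order had overlapping libraries in every region.

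**Figure D1:**
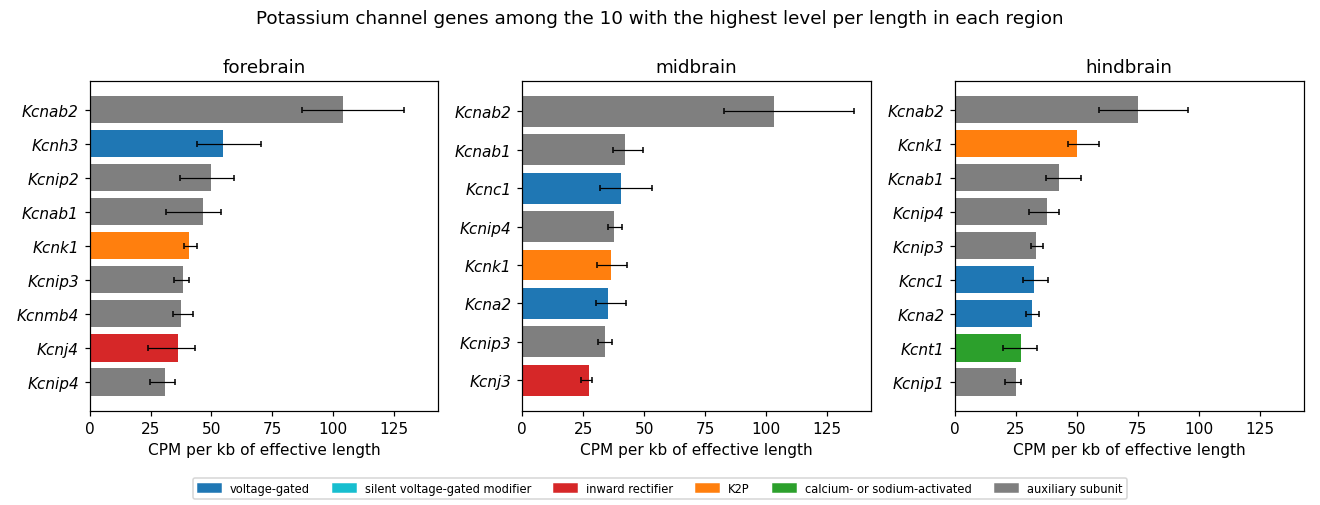
Level per length of members among the 10 with the highest mean in each region, in CPM per kb of effective length. Bars are means of 6 libraries, lines run from the lowest to the highest library, and colours give the class. Kcnab2 leads in all 3 regions, and Kcnh3 and Kcnip2 are among the 10 in forebrain alone.

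The family differed most between forebrain and hindbrain. In forebrain 43 of the 76 members were higher and in hindbrain 21 were higher, 32 and 9 of them by at least 2-fold. Over all 20363 genes tested, 26.4% were higher in forebrain and 25.3% in hindbrain, and 10.7% and 8.06% were so by at least 2-fold. Of the tested members 56.6% were higher in forebrain and 27.6% in hindbrain, and the median log2 fold change was 0.52 against -0.01 over all genes. Without both replicate 3 mice, 39 members were higher in forebrain and 18 in hindbrain. Fewer cells of a type and less RNA per cell cannot be told apart in such bulk libraries.

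**Figure D2:**
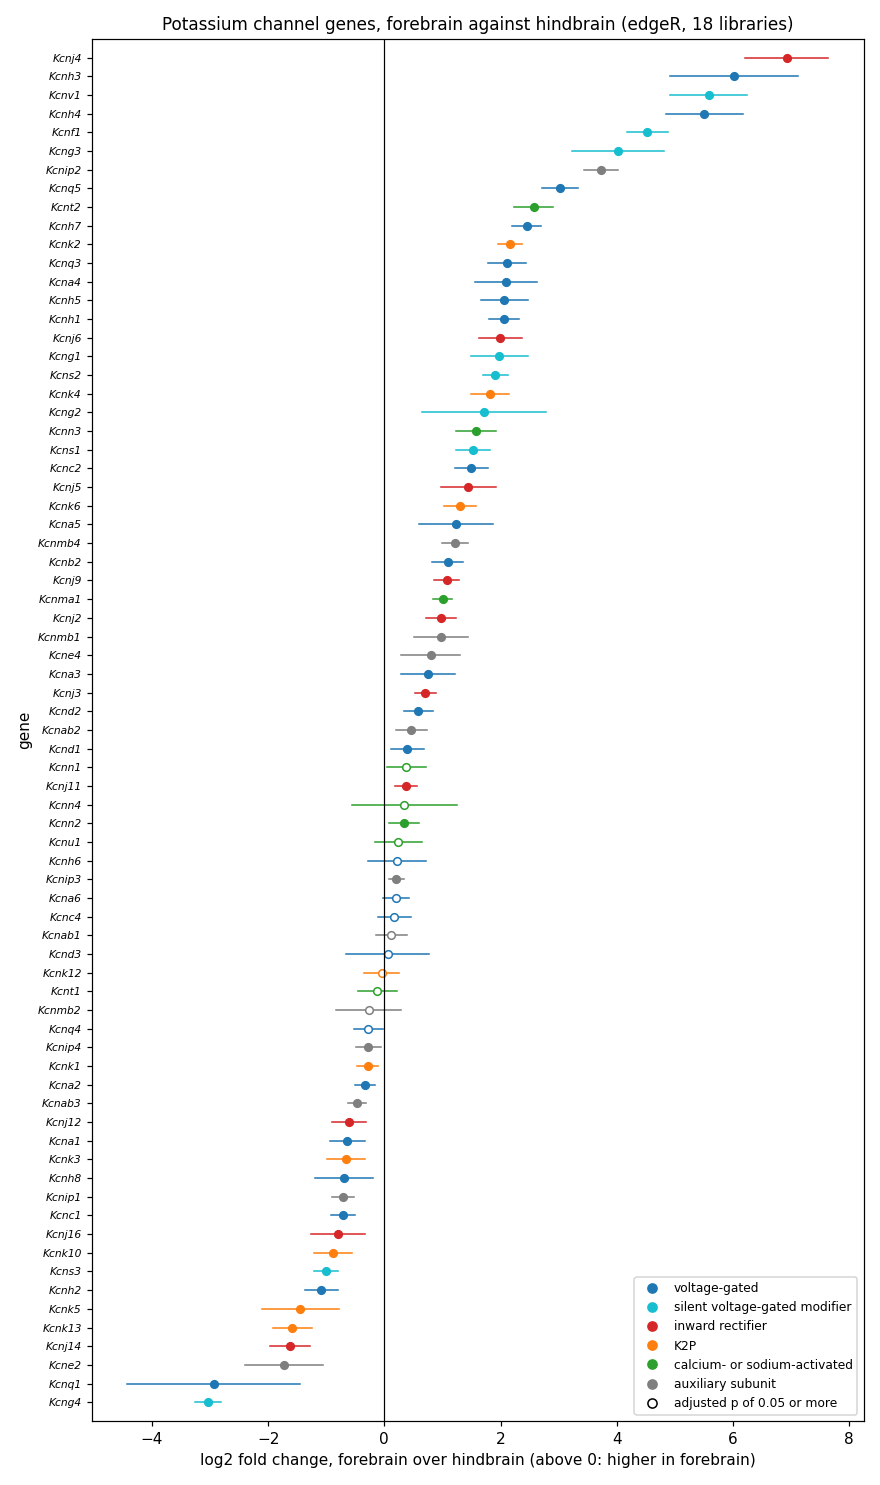
Log2 fold change of 73 tested members in forebrain over hindbrain from edgeR, with 95% confidence intervals as lines and the class as colour. Open points have an adjusted p of 0.05 or more. Kcnj4 lies at 6.93 at the top and Kcng4 at -3.04 at the bottom, and Kcng3 had only 0 to 4 counts in each hindbrain library.

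Among voltage-gated subunits, 16 of 28 were higher in forebrain and 7 in hindbrain, beside 26.4% and 25.3% of all genes. Kcnh3, whose ether-a-go-go-like channel carries a subthreshold current in pyramidal neurons, ranged from 192 to 307 CPM in forebrain (median 232), from 41.4 to 158 in midbrain (median 112) and from 0.29 to 10.1 in hindbrain (median 4.6). No hindbrain library reached the lowest midbrain library, and in hindbrain Fmr1CRE replicates 1 and 2 lay at 0.60 and 0.29 CPM while the other 4 libraries lay at 3.56 or above. The forebrain over hindbrain log2 fold change of Kcnh3 was 6.02 ± 0.52 (edgeR adjusted p = 8.82e-08). Its relative Kcnh4 had 11.5 to 25.2 CPM in forebrain, 2.06 to 5.82 in midbrain and 0.17 to 0.67 in hindbrain. The 3 regions did not overlap, and the log2 fold change was 5.51 ± 0.32 (edgeR adjusted p = 7.09e-10).

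Kcnq3 and Kcnq5 contribute to the M-current, which damps repeated firing. The forebrain median of Kcnq3 was 201 CPM, that of midbrain 163 and that of hindbrain 42.0. Kcnq5 had medians of 76.2, 44.9 and 8.12 CPM in the same order of regions. Both genes were lower in hindbrain than in forebrain with no overlap between libraries, and the log2 fold changes were 2.11 ± 0.15 for Kcnq3 and 3.02 ± 0.15 for Kcnq5 (edgeR adjusted p = 1.04e-08 and 1.05e-10). Kcnq5 was also higher in forebrain than in midbrain, by 0.78 ± 0.13 (edgeR adjusted p = 0.000767). Kcnh1, another ether-a-go-go subunit, was higher in forebrain than in hindbrain by 2.06 and than in midbrain by 0.82 on the log2 scale.

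Kcnc1, a subunit that lets fast-spiking neurons fire at high rates, had 97.1 to 147 CPM in forebrain, 203 to 337 in midbrain and 177 to 241 in hindbrain, with no overlap between forebrain and the other regions (-0.71 ± 0.10 against hindbrain, edgeR adjusted p = 1.40e-05). Kcnh2, the subunit also known from the heart rhythm, was 2.12-fold higher in hindbrain than in forebrain. Kcna1 and Kcna2, the axonal low-threshold subunits, were lower in forebrain than in hindbrain by 0.64 ± 0.14 and 0.34 ± 0.08 on the log2 scale (edgeR adjusted p = 0.00126 and 0.00203), and the Kcna1 libraries overlapped. The Purkinje and granule neuron markers were at their lowest in forebrain as well, and their part in these differences was not tested.

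Among the silent modifiers, of 9 tested, 7 were higher in forebrain and 2 in hindbrain, all by at least 2-fold. Over all genes the shares at 2-fold or more were 10.7% and 8.06%. Kcnv1 had a median of 85.2 CPM in forebrain (80.01 to 103), 36.6 in midbrain (26.6 to 47.5) and 1.35 in hindbrain (0.96 to 5.10). The regions did not overlap, wild type replicate 3 was the highest hindbrain library, and the log2 fold change was 5.58 ± 0.32 (edgeR adjusted p = 6.27e-10). Kcnf1 had 62.9 to 97.8 CPM in forebrain, 54.2 to 80.3 in midbrain and 2.84 to 5.06 in hindbrain. Forebrain and midbrain overlapped, and the difference from hindbrain was 4.53 ± 0.17 (edgeR adjusted p = 7.52e-12). Kcng3 was scarce, with 24 to 43 counts in each forebrain library, 18 to 36 in midbrain and 0 to 4 in hindbrain. Kcng4 had the reverse pattern, with 9.73 to 12.1 CPM in forebrain (median 10.3), 25.1 to 56.4 in midbrain (median 47.6) and 76.4 to 99.7 in hindbrain (median 86.8). No library of one region overlapped another, and the log2 fold change of forebrain over hindbrain was -3.04 ± 0.11 (edgeR adjusted p = 4.47e-12). Kcns3 was the other modifier higher in hindbrain, by 2.01-fold, with 4.32 to 5.68 CPM in forebrain and 9.03 to 11.9 in hindbrain.

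**Figure D3:**
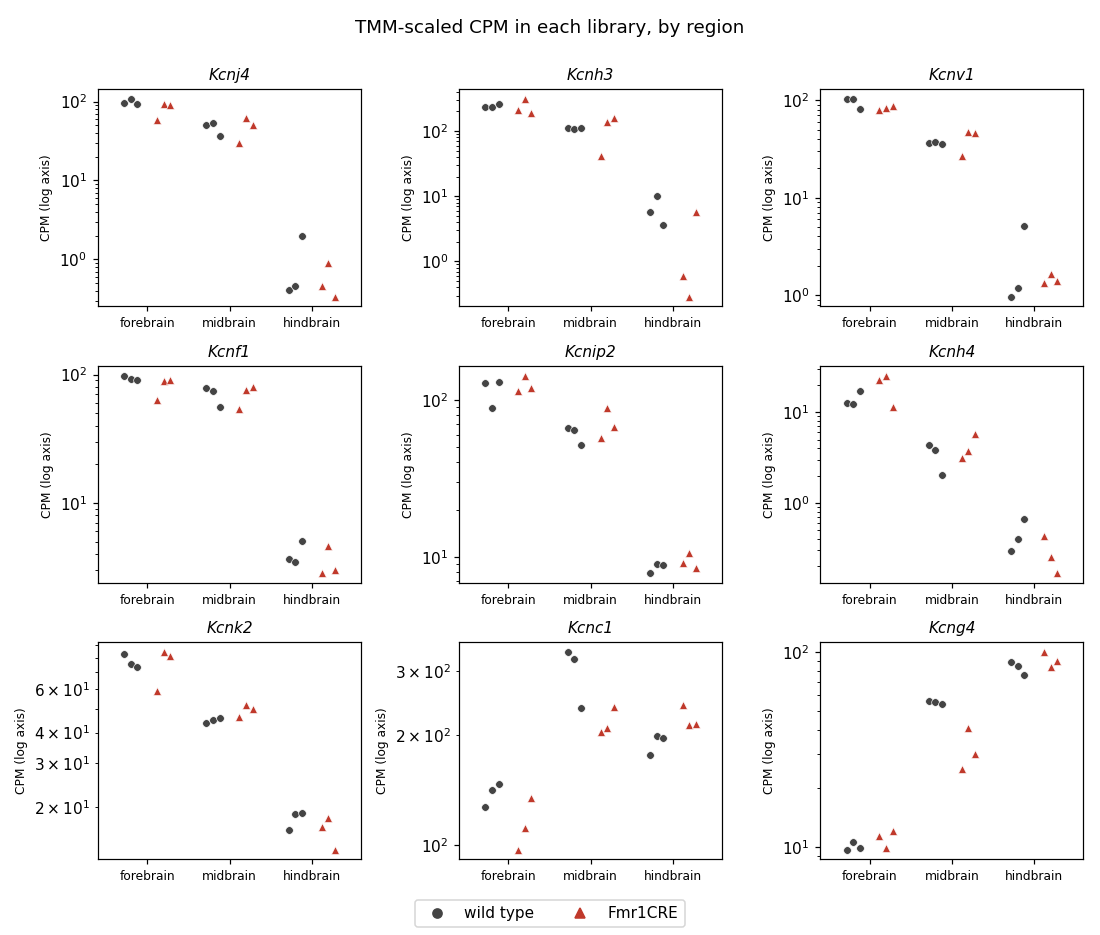
TMM-scaled CPM of 9 members in each library on log axes, by region, with circles for wild type and triangles for Fmr1CRE (3 libraries each). Kcnj4, Kcnh3, Kcnv1, Kcnf1, Kcnip2, Kcnh4 and Kcnk2 are lowest in hindbrain, Kcnc1 is lowest in forebrain, and Kcng4 goes from a median of 10.3 to 86.8 CPM.

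Inward rectifiers divided into 7 higher in forebrain and 3 higher in hindbrain of 10 tested, beside 26.4% and 25.3% of all genes. Kcnj4, a strong inward rectifier that holds forebrain neurons near rest, had 58.6 to 107 CPM in forebrain (median 93.2), 29.97 to 61.5 in midbrain (median 50.6) and 0.34 to 1.98 in hindbrain (median 0.46). Forebrain and midbrain overlapped at a single pair of libraries, Fmr1CRE replicate 1 in forebrain and Fmr1CRE replicate 2 in midbrain, and no hindbrain library came near them. Its log2 fold change of forebrain over hindbrain, 6.93 ± 0.34 or 122-fold, was the widest in the family (edgeR adjusted p = 1.23e-10). Of the G-protein-gated members, Kcnj3 and Kcnj6 were higher in forebrain than in hindbrain by 0.71 ± 0.09 and 2.00 ± 0.17 on the log2 scale (edgeR adjusted p = 5.95e-06 and 9.28e-08). Kcnj14, known from cranial motor nuclei, had 1.57 to 2.59 CPM in forebrain, 1.92 to 2.92 in midbrain and 5.58 to 8.59 in hindbrain. Its hindbrain libraries stood above all others, 3.08-fold over forebrain (edgeR adjusted p = 4.71e-07).

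K2P channels had 3 members higher in forebrain and 5 in hindbrain of 9 tested, beside 26.4% and 25.3% of all genes. Kcnk2, a leak channel opened by stretch and by lipids, had 58.9 to 84.4 CPM in forebrain (median 78.4), 43.6 to 51.5 in midbrain (median 45.9) and 13.48 to 18.9 in hindbrain (median 17.3). The 3 regions did not overlap, and forebrain exceeded hindbrain by 2.16 ± 0.10 (edgeR adjusted p = 5.28e-11). Kcnk13, a leak channel known from microglia, had 4.23 to 7.24 CPM in forebrain, 7.59 to 11.6 in midbrain and 12.2 to 21.1 in hindbrain, again without overlap, in the opposite order (-1.58 ± 0.16 for forebrain over hindbrain, edgeR adjusted p = 5.27e-07). The 5 microglial markers were in the reverse order, with a mean log2 CPM of 5.42 to 5.87 in forebrain and 4.39 to 4.68 in hindbrain. The part of cell makeup in the Kcnk13 level was not tested. Kcnk10 was 1.85-fold and Kcnk1 1.22-fold higher in hindbrain than in forebrain.

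Of the 8 calcium- or sodium-activated subunits, 4 were higher in forebrain and 0 in hindbrain, beside 26.4% and 25.3% of all genes. Kcnma1, the pore of the large-conductance BK channel, had 218 to 256 CPM in forebrain, 205 to 264 in midbrain and 109 to 130 in hindbrain, and the hindbrain libraries stood apart by 1.002 ± 0.08 from forebrain (edgeR adjusted p = 1.91e-08). Kcnmb4, the neuronal beta subunit of the same channel, had 50.2 to 62.5, 29.0 to 37.8 and 18.7 to 29.2 CPM. It was higher in forebrain than in hindbrain by 1.22 ± 0.10 and than in midbrain by 0.74 ± 0.10 (edgeR adjusted p = 6.93e-08 and 0.00014). Kcnn2, the pore of a small-conductance channel that shapes the afterhyperpolarization, differed little, with 23.9 to 38.1 CPM in forebrain and 20.8 to 30.3 in hindbrain (0.34 ± 0.12, edgeR adjusted p = 0.0248), and the call was lost without Fmr1CRE replicate 1, Fmr1CRE replicate 3 or wild type replicate 2 (edgeR adjusted p = 0.0613, 0.128 and 0.102). Kcnt1, a sodium-activated subunit, had 104 to 207 CPM in forebrain, 93.9 to 147 in midbrain and 109 to 187 in hindbrain, and the regions overlapped.

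Auxiliary subunits had 6 members higher in forebrain and 4 in hindbrain of 12 tested, beside 26.4% and 25.3% of all genes. Kcnip2, a calcium-binding partner of Kcnd channels, had 89.2 to 142 CPM in forebrain (median 123), 51.4 to 88.4 in midbrain (median 65.5) and 7.90 to 10.7 in hindbrain (median 8.95). No library overlapped between regions, and forebrain exceeded hindbrain by 3.73 ± 0.14 (edgeR adjusted p = 5.82e-12). Its pore partner Kcnd2 had a median of 93.5 CPM in forebrain, 106 in midbrain and 58.8 in hindbrain (0.58 ± 0.12 for forebrain over hindbrain, edgeR adjusted p = 0.000674). Kcnip4 differed by 0.28 ± 0.10 in favour of hindbrain (edgeR adjusted p = 0.0328), a call lost without Fmr1CRE replicate 1, wild type replicate 1 or wild type replicate 3. Kcne2, a small partner of Kcnq1 that is abundant in choroid plexus epithelium, had 2.02 to 5.61 CPM in forebrain, 0.35 to 2.77 in midbrain and 6.13 to 15.2 in hindbrain. Hindbrain lay above the other regions, 3.32-fold over forebrain (edgeR adjusted p = 0.000258). The 5 choroid plexus markers, none of them at 0, summed to 366 to 869 CPM in forebrain, 169 to 483 in midbrain and 897 to 3225 in hindbrain, in the same order, and their part in the Kcne2 level was not tested. Kcnq1, named after its values were seen, had 0.26 to 0.60 CPM in forebrain and 0.33 to 13.2 in hindbrain, where Fmr1CRE replicate 2 had 13.2 and 3 of the 6 libraries stayed below 0.5.

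Midbrain lay closer to forebrain than to hindbrain in the number of members that differed, as it did over all genes. Of the tested members 46.1% differed between midbrain and forebrain and 72.4% between midbrain and hindbrain, beside 19.3% and 49.1% of all genes. Against hindbrain, 45 members were higher in midbrain and 10 in hindbrain, 29 and 4 of them by at least 2-fold, where 25.1% and 24% of all genes were higher, and 8.49% and 6.27% by at least 2-fold. The median log2 fold change of the members was 0.59, against -0.03 over all genes. Without both replicate 3 mice the counts were 45 and 9. The voltage-gated class had 20 of 28 members higher in midbrain and 2 in hindbrain. Kcnj4, Kcnh3, Kcnv1 and Kcnf1 led with log2 fold changes of 6.00, 4.91, 4.35 and 4.22, and on the hindbrain side the members at 2-fold or more were Kcne2, Kcnq1, Kcnj14 and Kcng4 (-3.15, -2.87, -1.58 and -1.05). Telencephalic markers were also far higher in midbrain than in hindbrain libraries, as given above, and their part in these differences was not tested.

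Between forebrain and midbrain, 19 members were higher in forebrain and 16 in midbrain, against 9.38% and 9.96% of all genes. At 2-fold or more there were 3 and 4 members, against 1.82% and 2.27% of all genes, and the median log2 fold change of the members was -0.01 beside 0.02 over all genes. Without both replicate 3 mice, 15 and 14 members were called. The 3 on the forebrain side were Kcnh4 (2.14 ± 0.25), Kcne2 and Kcnv1 (1.23 ± 0.25), and those on the midbrain side included Kcng4 (-1.99 ± 0.10), Kcnd3 (-1.09 ± 0.34) and Kcnc1 (-1.02 ± 0.10). Kcnd3, an A-type subunit, was highest in midbrain at 99.8 to 160 CPM, against 9.36 to 81.8 in forebrain and 32.6 to 114 in hindbrain. Its single low forebrain library was Fmr1CRE replicate 1 at 9.36 CPM, the other 5 lay at 54.7 or above, and the call against forebrain (edgeR adjusted p = 0.0345) was lost without any 1 of the 3 wild type mice. With the mouse as a block, the edgeR adjusted p of Kcnd3 became 0.0911. Kcnc4 was 1.53-fold higher in midbrain than in forebrain. Kcnh5, Kcnip2, Kcnh7 and Kcnq5 were higher in forebrain than in midbrain by 0.92, 0.87, 0.72 and 0.78 on the log2 scale.

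Some members lie beside each other in the genome. Of 10 pairs of adjacent members less than 250 kb apart, 4 had both partners called between forebrain and hindbrain. Their values are a description, since 56.6% of the tested members were higher in forebrain and 27.6% in hindbrain, and nothing is read from the count of pairs. On chromosome 6 Kcna5 was higher in forebrain (1.23) and Kcna1, 105 kb away, in hindbrain (-0.64). On chromosome 3 Kcna3 was higher in forebrain (0.75) and Kcna2 in hindbrain (-0.34). On chromosome 11 Kcnj2 was higher in forebrain (0.97) and Kcnj16 in hindbrain (-0.80), and on the same chromosome Kcnmb1 (0.97), which overlaps Kcnip1 without shared exon bases, was higher in forebrain and Kcnip1 in hindbrain (-0.71). Libraries of the regions overlapped for Kcna5, Kcna1, Kcna3, Kcnj16 and Kcnmb1. These genes were named for their position and not for their values.

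The partners of the family that are not members, from Dpp6 and Dpp10 of the Kcnd complexes to Amigo1 of Kcnb channels and the Hcn pacemaker channels, were listed as 17 genes, of which 15 were tested between regions. Of these 5 were higher in forebrain and 3 in hindbrain, beside 26.4% and 25.3% of all genes. Between forebrain and midbrain 1 was higher in forebrain and 7 in midbrain, beside 9.38% and 9.96%, and between midbrain and hindbrain 10 were higher in midbrain and 1 in hindbrain, beside 25.1% and 24%. Amigo1 was higher in forebrain than in hindbrain by 0.48 ± 0.09.

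The Fmr1CRE genotype was tested within each region, 3 against 3 libraries, for 74 members. No member passed the edgeR test in any region (0 of 74 each), where over all genes the share called was 0% in forebrain, 0.00543% in midbrain and 0% for the hindbrain libraries. The count was also 0 in each region without both replicate 3 mice. The smallest edgeR adjusted p of a member was 0.806 in forebrain, 0.598 in midbrain and 0.8004 in hindbrain. At an unadjusted p under 0.05 there were 0 members in forebrain, 11 in midbrain and 5 in hindbrain, where 5.43%, 6.17% and 5.13% of all genes passed. These unadjusted counts depended on single libraries. The forebrain count was 7 without both replicate 3 libraries, 9 without Fmr1CRE replicate 3 and 2 without wild type replicate 3. In midbrain the count was 15 without both replicate 3 libraries, and single libraries left out gave 4 (wild type replicate 2) to 18 (wild type replicate 3). In hindbrain it was 11 without both or without wild type replicate 3 alone, and 3 without wild type replicate 2. DESeq2, the tool named in the submitters' processing notes, called 0, 1 and 2 members, against 0.168%, 0.337% and 0.309% of all genes. These p-values measure the spread between mice of one litter.

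In midbrain, 8 of the 11 members under 0.05 were lower in Fmr1CRE and 3 were higher. Over all genes, 617 of the 1135 under 0.05 were lower and 518 were higher. Kcng4, Kcnab3 and Kcnj5 were named for their small unadjusted p, so a lack of overlap between their libraries is a description only. Kcng4 had 25.1, 41.0 and 30.02 CPM in Fmr1CRE replicates 1 to 3 and 56.4, 55.8 and 54.3 CPM in the wild type. Every Fmr1CRE library lay below every wild type library, with a log2 fold change of -0.79 ± 0.17 (edgeR adjusted p = 0.598), and Kcng4 was the member called by DESeq2 (DESeq2 adjusted p = 0.00929). Kcnab3, a beta subunit of Kcna channels, had 38.6, 32.1 and 36.9 CPM in Fmr1CRE and 48.1, 51.3 and 45.4 in wild type, without overlap (-0.43 ± 0.11, edgeR adjusted p = 0.751). Kcnj5, a G-protein-gated rectifier, had 3.71, 2.54 and 3.09 CPM in Fmr1CRE and 2.09, 1.63 and 1.71 in wild type, higher in all 3 (0.78 ± 0.23, edgeR adjusted p = 0.770). Purkinje cell markers had a mean log2 CPM of 5.78, 6.93 and 6.07 in the same Fmr1CRE libraries and of 6.52, 6.86 and 7.04 in the wild type, with overlap. Within Fmr1CRE the library lowest in these markers was also the lowest in Kcng4. The wild type libraries ran in the opposite order, within a narrow Kcng4 range of 54.3 to 56.4 CPM. Granule neuron markers had a mean log2 CPM of 4.59, 5.91 and 5.09 in Fmr1CRE and of 5.12, 5.89 and 5.75 in wild type. The part of tissue makeup in the Kcng4 values was not tested.

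In hindbrain, all 5 members under 0.05, among them Kcnd3, Kcnj6, Kcnj11 and Kcnd2, were higher in Fmr1CRE. Over all genes, 573 of the 981 under 0.05 were higher and 408 were lower. Kcnd3 and Kcnj6 were likewise named for their small unadjusted p, and a lack of overlap is again a description only. Kcnd3 had 103, 51.1 and 114 CPM in Fmr1CRE replicates 1 to 3 and 38.0, 32.6 and 39.8 CPM in the wild type. The groups did not overlap, and the difference was 1.27 ± 0.28 (edgeR adjusted p = 0.8004, DESeq2 adjusted p = 0.00362). Granule neuron markers had a mean log2 CPM of 6.87, 5.77 and 6.41 in the same Fmr1CRE libraries. In the wild type they had 6.32, 6.12 and 5.77, with overlap, and the part of tissue makeup in the Kcnd3 values was not tested. Kcnj6 had 5.37, 5.81 and 4.04 CPM in Fmr1CRE and 2.56, 3.24 and 3.12 in wild type (0.76 ± 0.22, edgeR adjusted p = 0.875).

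**Figure D4:**
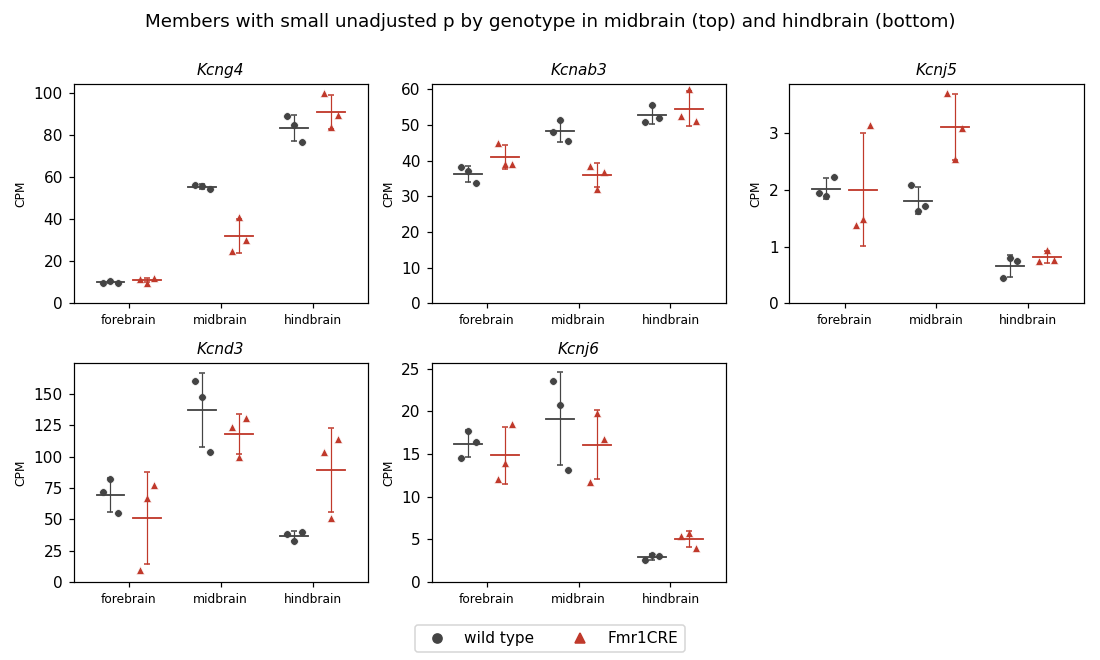
TMM-scaled CPM in every library of members with small unadjusted p by genotype in midbrain (Kcng4, Kcnab3 and Kcnj5) and in hindbrain (Kcnd3 and Kcnj6). Lines and bars are the mean and SD of 3 libraries. In midbrain the Fmr1CRE libraries of Kcng4 lie between 25.1 and 41.0 CPM, below the wild type, and in hindbrain those of Kcnd3 lie above it.

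In forebrain the 3 smallest p-values were those of Kcnb2, Kcnk3 and Kcnh5, with log2 fold changes of -0.33 ± 0.14, -0.56 ± 0.25 and -0.35 ± 0.17, and the Fmr1CRE and wild type libraries overlapped for each. Without both replicate 3 libraries these values were -0.53, -0.37 and -0.61. Whether the genotype difference itself varied with region was tested with an interaction term over all 18 libraries. That test took the regions of a mouse as independent, and with the mouse as a block edgeR also called 0 members. The edgeR test called 0 of 76 members and 0% of all genes, and the smallest adjusted p was that of Kcng4 at 0.379. At an unadjusted p under 0.05 there were 7 members and 7.54% of genes. That member count was 24 without both replicate 3 mice. Single mice left out gave 5 (wild type replicate 1 or Fmr1CRE replicate 1) to 15 (wild type replicate 3). Without the Fmr1CRE replicate 2 mouse the edgeR adjusted p of Kcng4 was 0.0462. DESeq2 called 3 members in this test, among them Kcng4 and Kcnab3 (DESeq2 adjusted p = 0.00223 and 0.0374), against 0.255% of all genes.

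FMRP is known to bind the Kcnt1 channel and the BK channel through Kcnmb4, and the mRNAs of Kcnc1 and Kcnd2. Kcnt1 had 165, 207 and 104 CPM in Fmr1CRE forebrain and 109, 116 and 136 in wild type, with overlap (0.44 ± 0.25). The overlap came from Fmr1CRE replicate 3, of the pair whose labels are in doubt. With both libraries of that pair left out the difference was 0.78 (edgeR adjusted p = 0.166). Without Fmr1CRE replicate 3 alone it was 0.68, and without wild type replicate 3 alone 0.55 (edgeR adjusted p = 0.141 and 0.943). In midbrain and hindbrain its differences were -0.35 ± 0.13 and 0.02 ± 0.20. For Kcnc1 the forebrain difference was -0.25 ± 0.13, that of midbrain -0.46 ± 0.14 and that of hindbrain 0.22 ± 0.10. Without replicate 3 the forebrain value of Kcnc1 was -0.32. Kcnd2 differed by -0.12 ± 0.18, -0.05 ± 0.13 and 0.29 ± 0.12 in the same order of regions, and by -0.31 in forebrain without replicate 3. Kcnma1 differed by -0.10 ± 0.10, -0.06 ± 0.11 and -0.05 ± 0.11, and Kcnmb4 by -0.16 ± 0.10, 0.04 ± 0.12 and -0.06 ± 0.19. None of these 15 differences passed the edgeR test. The 95% intervals, not adjusted for the number of genes, differed in width. That of Kcnma1 in midbrain ran from -0.32 to 0.20 and that of Kcnt1 in forebrain from -0.13 to 1.01. For Kcnc1 in midbrain it ran from -0.78 to -0.14. Of the partner genes tested, 14 in forebrain and 15 in each of the other regions, edgeR called 0 by genotype.

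Exons of 27 members share bases with another annotated gene, and 6 share over 10% of theirs. Among these are Kcna6 (39.6%), Kcnj3 (31.1%), Kcnmb4 (20.8%), Kcnk4 (13.1%) and Kcnk2 (12.2%). The strand setting of the counting is not given in the sources used here, so reads of these members and of the overlapping gene may not be told apart.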

How the data were processed

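Poly(A) RNA libraries were sequenced as single-end reads. The gene counts deposited by the authors are whole numbers made from Salmon estimates summed per gene and rounded in the bcbio_nextgen pipeline. The estimated counts per transcript deposited by the authors come from Salmon 0.14.0, and the submitters' processing notes also name DESeq2 1.30.1 and mm10. The strand setting of the counting is not given in the sources used here. Symbols and coordinates came from GENCODE M21 (GRCm38).

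Gene counts were fitted in R 4.3.3 with edgeR 4.0.16 (TMM, filterByExpr, quasi-likelihood test) and p-values were Benjamini-Hochberg adjusted over all genes tested, with calls at 0.05. Regions were compared over all 18 libraries with 6 group means, genotypes within the 6 libraries of a region, and their interaction over all libraries. Error terms are standard errors and intervals are 95%. Level per length is CPM over an effective length pooled over all libraries from the transcript files. Marker means are of log2(CPM + 0.5). The procedure was tested on simulated counts.

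Genes were named by rule: for each pair of regions the 8 members with the widest fold change in each direction among those called with no overlap, the 5 with the highest level per length in each region, the 3 with the smallest p in each genotype comparison and any called there, 5 genes tied to FMRP, and 14 classic members. Some members named by this rule are not reported here. The members and lists were chosen with earlier results of these data known.

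The labels give the mouse of each library. Deviations from the group means correlated at -0.17 to 0.18 over 18 pairs of libraries from one mouse, and at -0.17 to 0.08 over 9 pairs that share only a number across genotypes. Alternatives were DESeq2 1.42.0, other scalings and filters, the mouse as a block, fewer regions or a single genotype, and each mouse left out.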

Additional observations from a re-analysis of the deposited data

How the results depend on the processing

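Of the counts of members between regions, 179 alternative values stayed within 1.5 times the reported count and 13 did not, and for genotype 51 did and 4 did not. With at least 10 counts required in every library, 1 member was at least 2-fold higher in forebrain than in midbrain and 2 in hindbrain than in midbrain. In wild type libraries only, these counts were 5 and 2, with 9 members higher in midbrain than in forebrain and 12 in hindbrain than in forebrain. In Fmr1CRE libraries only, 4 members were higher in forebrain and 4 in midbrain between those regions, 2 of the latter by at least 2-fold. Leaving out each mouse gave 10 to 15 members higher in midbrain than in forebrain (10 without wild type replicate 2), 2 to 5 by at least 2-fold (2 without Fmr1CRE replicate 1, wild type replicate 1 or wild type replicate 2), and 0 to 1 in the interaction (1 without Fmr1CRE replicate 2). DESeq2 called 1 member by genotype in midbrain, 2 in hindbrain and 3 in the interaction. The cause of these changes was not tested.

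Of the named genes between regions, 1183 values kept direction and call, 53 lost the call, and Kcnc1 in midbrain against hindbrain reversed to -0.076 in Fmr1CRE libraries only. By genotype 12 values reversed, all of genes not called. Kcnt1 in hindbrain was -0.00264 with total counts alone, -0.26 without both replicate 3 libraries and -0.16 to 0.22 with each mouse left out. Leaving out each mouse gave Kcnd2 -0.28 to 0.067 in forebrain and -0.15 to 0.031 in midbrain, Kcnma1 -0.13 to 0.025 in hindbrain and -0.14 to 0.028 in midbrain, and Kcnmb4 -0.21 to 0.12 in hindbrain and -0.049 to 0.15 in midbrain. Total counts alone moved the median of all genes in forebrain against hindbrain to -0.15 and the calls to 4349 genes higher in forebrain and 6819 in hindbrain, from 5383 and 5147, with 40 and 22 members among them.

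With the mouse as a block, 43 members were higher in forebrain and 22 in hindbrain, 43 in midbrain and 9 in hindbrain, and 18 in forebrain and 14 in midbrain. The replicate number as a block gave 0 members by genotype in each region.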
